A study of Caenorhabditis elegans with 3 samples.

Results

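LIN-15B binding sites of intermediate rank on the autosomes of Caenorhabditis elegans are described here. They were chosen by the measured strength of their peaks: a peak of the series-wide list belonged if a peak ranked 1 to 5000 overlapped it in at least 2 of the 3 replicate lists, and a peak ranked 1 to 2000 in fewer than 2 of them. Of 30000 listed peaks, 24320 lay on autosomes, and 759 of these met the rule and are called weaker sites. The 1448 peaks with a rank of 1 to 2000 in 2 or 3 replicates are called stronger sites, and the remaining 22113 are called other listed peaks. The rule is the same as a second-best replicate rank above 2000 and up to 5000, so ranks describe the weaker sites and support nothing about them.

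The assay was chromatin immunoprecipitation followed by sequencing, in which DNA crosslinked to a protein is pulled down and read. All 3 biological replicates were whole L1 larvae, the first larval stage, of both sexes pooled, from strain OP184, which carries the allele unc-119(tm4063) III and the transgene wgIs184 encoding LIN-15B fused to eGFP. Replicates 1 and 2 came from the CGC stock centre with a labelled fragment size range, and replicate 3 from a laboratory stock, its chromatin sonicated with a microtip, with a GFP-FLAG tag at the C terminus. There was 1 group and no control sample among those analysed. The animals express a tagged transgene, all cell types of the larva are pooled, and the labels do not settle if the antibody recognised the eGFP tag or LIN-15B itself. Each list held exactly 30000 peaks and no read counts, which leaves sequencing depth unknown. In whole animals, fewer cells with binding and less binding per cell cannot be told apart.

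LIN-15B belongs to the synMuv B genes, a group of chromatin regulators first found because their loss, together with a second class of mutation, gives animals several vulvae. In larvae it is known for keeping germline genes off in somatic cells, alongside the DREAM complex, which acts at promoters of cell cycle genes. It carries a THAP domain, a type of zinc finger that binds DNA.

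The sequences of 6 weaker and 2 stronger sites show the base composition that the comparison below turns on. Each is the 101 bases around the series-wide summit on ce11, plus strand, 5′ to 3′, and capitals mark every CG. The weaker sites are the 4 promoter sites and the 2 sites outside promoters with the best second-best rank on chromosomes II to V, and the stronger ones are the 2 best ranked promoter sites there. They lie 141 bp upstream of aman-2, an alpha-mannosidase (chrV:11933337-11933437), 322 bp upstream of the splicing factor gene syf-3 (chrV:5939650-5939750), 161 bp upstream of C08H9.16 (chrII:9892567-9892667) and 266 bp upstream of the nearer of 2 starts, those of tbck-1 and fbxb-88 (chrII:4828243-4828343). The sites outside promoters are intergenic, 2144 bp upstream of the calmodulin gene cmd-1 (chrV:1154077-1154177) and 651 bp upstream of Y38C1BA.1 (chrIV:1804583-1804683). The stronger sites lie 55 bp upstream of tasp-1 (chrIII:10759202-10759302) and 173 bp upstream of Y17G9B.5, which shares its promoter with rpl-20 (chrIV:4750017-4750117).
aman-2: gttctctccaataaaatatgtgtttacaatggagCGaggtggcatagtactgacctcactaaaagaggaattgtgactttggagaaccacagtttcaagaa
syf-3: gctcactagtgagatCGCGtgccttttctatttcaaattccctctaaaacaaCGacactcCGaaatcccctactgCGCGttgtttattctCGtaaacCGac
C08H9.16: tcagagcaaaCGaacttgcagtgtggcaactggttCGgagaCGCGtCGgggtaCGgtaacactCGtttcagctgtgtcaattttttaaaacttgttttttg
tbck-1 and fbxb-88: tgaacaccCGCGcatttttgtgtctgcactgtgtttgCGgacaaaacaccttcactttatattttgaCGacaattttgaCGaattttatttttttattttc
cmd-1: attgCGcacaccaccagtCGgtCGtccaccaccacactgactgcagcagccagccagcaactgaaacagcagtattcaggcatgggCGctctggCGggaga
Y38C1BA.1: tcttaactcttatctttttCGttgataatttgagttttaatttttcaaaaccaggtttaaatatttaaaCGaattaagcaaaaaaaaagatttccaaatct
tasp-1: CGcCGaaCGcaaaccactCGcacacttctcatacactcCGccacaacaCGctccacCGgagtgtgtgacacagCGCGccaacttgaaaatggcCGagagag
Y17G9B.5 and rpl-20: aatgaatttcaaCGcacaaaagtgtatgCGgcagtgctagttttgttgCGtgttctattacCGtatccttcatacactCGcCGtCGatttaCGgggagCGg
These windows held 1, 8, 7 and 5 CGs at the 4 weaker promoter sites and 5 and 2 at the weaker sites outside promoters, against 10 and 9 at the stronger sites. The weaker sites therefore ranged from CG-poor windows such as those of aman-2 and Y38C1BA.1 to windows near the stronger ones, such as that of syf-3. GC content ran from 21.8% at Y38C1BA.1 to 60.4% at cmd-1 among the 6 weaker windows.

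The replicates did not contribute equally to the weaker sites. Replicates 2 and 3 alone placed 426 of the 759 (56.1%) within rank 5000, replicates 1 and 2 alone 129, replicates 1 and 3 alone 118, and all 3 replicates 86. Of the stronger sites, 1011 (69.8%) were within rank 5000 in all 3. The median matched rank of the weaker sites was 3999 in replicate 1 (510 sites matched), 2704.5 in replicate 2 (700 matched) and 2594 in replicate 3 (696 matched). A single rank within 2000 was allowed, and 197 sites had it in replicate 3, 169 in replicate 2 and 85 in replicate 1, while 308 had none. In the series-wide list the median rank was 2254, against 769 for the stronger sites. Of the weaker sites, 42 shared both of their replicate peaks with a neighbouring site, so not every site stands for a separate replicate peak.

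**Figure D1:**
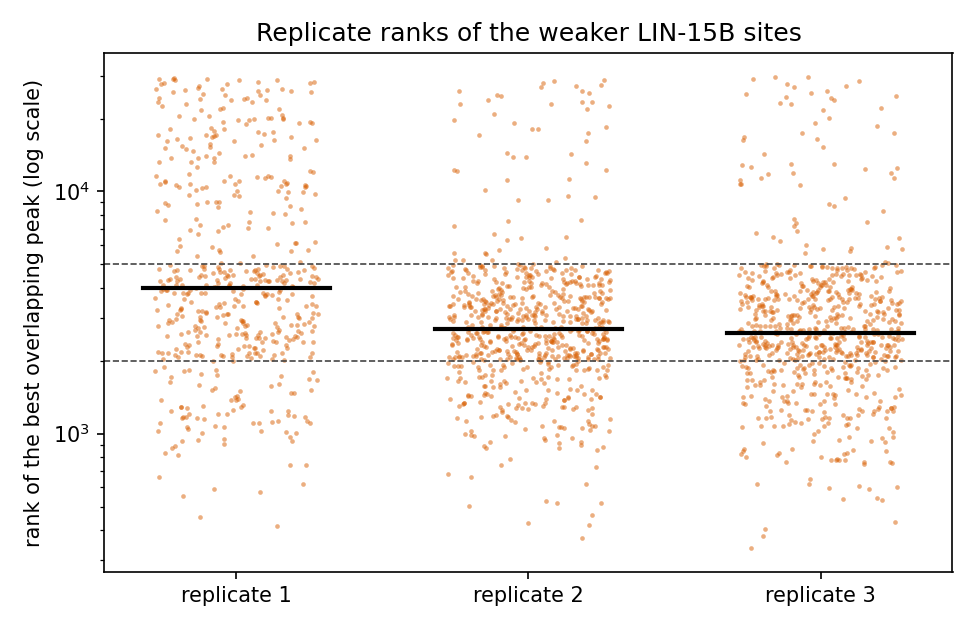
Rank of the best overlapping peak in each replicate list (log scale) for each weaker site matched there. Points are sites, spread sideways for legibility, black bars are medians of 3999, 2704.5 and 2594, and dashed lines mark ranks 2000 and 5000, so the band between the lines is filled by the rule that chose the sites.

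The level of reproducibility was read in a replicate that the choice had not used. Sites were chosen by the same rank rule in 2 replicates, and the share with a peak of rank 1 to 5000 in the replicate left aside was counted. It was 187 of 613 sites (30.5%) in replicate 1, 248 of 366 (67.8%) in replicate 2 and 225 of 354 (63.6%) in replicate 3. Classed by the same 2 replicates, the other listed peaks reached 11.7%, 9.16% and 11.7%, and the stronger sites 71.9%, 96.7% and 94.3%. In each replicate the sites so chosen lay between the stronger sites and the other listed peaks so classed. They are not the 759 weaker sites. By the rule over all 3 replicates, 86 of the matched sites in each replicate were weaker sites and the rest were stronger sites. The match was read on the same ranks that the rule used, so it describes ranks and supports nothing about the weaker sites. The excess of the sites chosen in 2 replicates over the other listed peaks was 43.1 ± 21.3 percentage points (SD, n = 3; exact sign-flip permutation test over replicates, two-sided, p = 0.25). With 3 replicates 0.25 is the smallest p this test can give, so no comparison here can reach 0.05. The series-wide list was itself made from all 3 replicates.

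Weaker sites lay in promoters less often than stronger sites and more often than other listed peaks. A promoter is taken here as the stretch from 500 bp upstream to 200 bp downstream of a protein-coding transcript start. Of the weaker sites 363 (47.8%) had the summit in a promoter, where 23.6% of all listed autosomal peaks did, against 1133 of the stronger sites (78.2%) and 4236 of the other listed peaks (19.2%). Outside promoters, 216 weaker sites (28.5%) were intergenic, 135 (17.8%) lay in introns, 28 (3.69%) in coding exons and 17 (2.24%) in untranslated regions. The intergenic and intronic shares of the stronger sites were 13.6% and 6.63%. Coding exons held 5 stronger sites (0.345%) but 18.9% of the other listed peaks, so in coding sequence the weaker sites were nearer to the stronger ones.

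**Figure D2:**
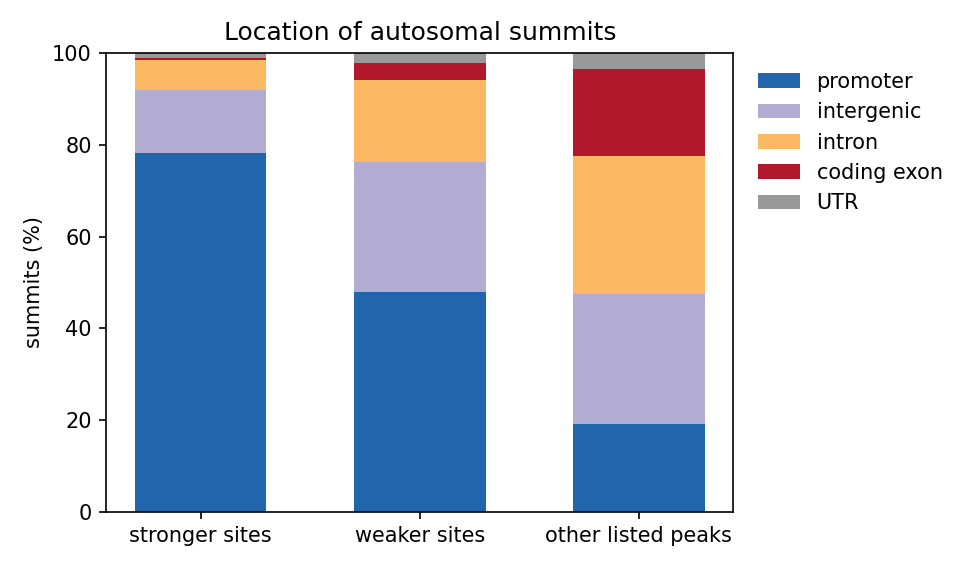
Share of summits (%) in each kind of location for the 1448 stronger sites, the 759 weaker sites and the 22113 other listed peaks on autosomes. The promoter share is 78.2%, 47.8% and 19.2%, and the coding exon share is 0.345%, 3.69% and 18.9%.

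Each replicate's own summits gave the same order. The classes were set from the ranks of all 3 replicates together, so the replicates were read at largely overlapping sites. Agreement between them in location, base composition or motifs is therefore partly built in and is not independent replication. Under the weaker sites 36.3% of summits lay in promoters in replicate 1, 48.0% in replicate 2 and 53.2% in replicate 3. Under the stronger sites the shares were 77.4%, 78.7% and 79.5%. The groups did not overlap, and the difference was -32.7 ± 7.58 percentage points (SD, n = 3; exact sign-flip permutation test, p = 0.25). Own summits numbered 333, 641 and 630 under the weaker sites and 1093, 1419 and 1395 under the stronger ones. The intergenic share was higher under weaker sites by 15.3 ± 2.35 points and the intronic share by 11.3 ± 1.71 points, in 3 of 3 replicates each (SD, n = 3; exact sign-flip permutation test, p = 0.25 for each).

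The promoter share moved with the replicates that supported a site. It was 57.5% for sites within rank 5000 in replicates 2 and 3 only, 51.2% in all 3, 39.8% in replicates 1 and 3 only and 20.9% in replicates 1 and 2 only. The share in that last group of 129 sites was near that of the other listed peaks (19.2%) and below that of all listed autosomal peaks (23.6%). The ratio of observed to expected CpG, the CG dinucleotide, followed a like order, with means of 1.28, 1.25, 1.10 and 0.995. GC content did not, at 39.5%, 42.5%, 38% and 42.8%. Stock and labelled preparation differ between replicate 3 and the others, and the part of either in these values was not tested.

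Among the promoter sites the geometry resembled that of the stronger sites in position. In gene number it lay between the stronger sites and the other listed peaks. Relative to the nearest transcript start, with upstream negative, the median summit lay at -156 bp (quartiles -262 and -65 bp), and 321 (88.4%) lay upstream, against -154 bp and 94.4% for the stronger sites. For the other listed peaks in promoters these were -126 bp and 71.0%. Promoters shared by 2 or more genes held 82 of the 363 weaker promoter sites (22.6%) and 416 of the 1133 stronger ones (36.7%). Of the 4236 other listed peaks in promoters they held 265 (6.26%). In the replicates' own summits, 10.2 ± 3.41% of weaker and 29.3 ± 0.416% of stronger sites lay in promoters of 2 or more genes (SD, n = 3; difference -19.1 ± 3.58 points, exact sign-flip permutation test, p = 0.25).

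**Figure D3:**
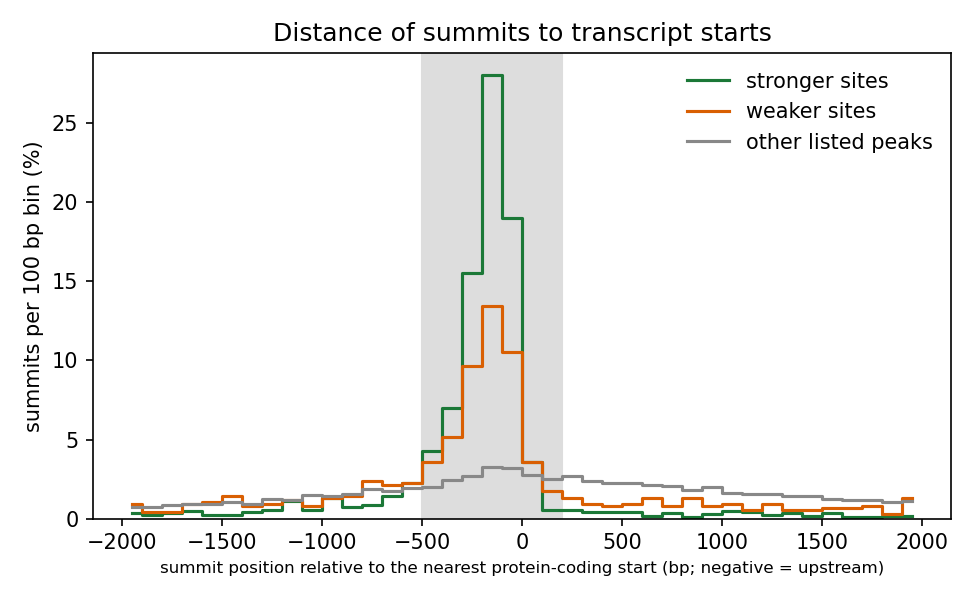
Summit position relative to the nearest protein-coding transcript start (bp, negative upstream) as the share of all summits of a class per 100 bp bin. The grey band is the promoter definition; weaker sites peak just upstream of the start as the stronger sites do, at a lower height, with medians in promoters of -156 and -154 bp.

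Of the 396 weaker sites outside promoters, 132 lay within 1000 bp of a start and 143 (36.1%) lay over 2000 bp away. The share over 2000 bp away was 27.6% for the stronger sites and 39.3% for the other listed peaks outside promoters. The distant weaker sites were on either side of the nearest start, with 72 over 2000 bp upstream and 71 over 2000 bp downstream. Downstream of a start includes positions inside the gene. The 5 farthest from any protein-coding start were 18947 and 13100 bp from Y105C5B.1418, 17661 bp from gcn-1, 16610 bp from aakg-1 and 13384 bp from irld-18. The gcn-1 site, in an intron of a gene for a translation regulator, ranked 2074 in replicate 2 and 3058 in replicate 3 and had no listed peak in replicate 1. The aakg-1 site, near a gene for a subunit of AMP-activated kinase, ranked 2569, 5125 and 1280 in replicates 1, 2 and 3.

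In base composition the weaker sites were nearer to the stronger sites than to the other listed peaks in GC content, and about midway in CpG ratio. Over the 100 bp on each side of the series-wide summit the weaker sites had a GC content of 40.2 ± 7.12% (SD over 759 sites), the stronger sites 41 ± 6.88% and the other listed peaks 35.3 ± 6.78%. Their CpG ratio was 1.20 ± 0.461, against 1.43 ± 0.414 and 0.995 ± 0.455. The spread over sites was wider than the differences between these means.

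In the replicates' own summits the CpG ratio was 1.06, 1.21 and 1.25 under weaker sites in replicates 1, 2 and 3 and 1.42, 1.42 and 1.44 under stronger sites. The replicate ranges did not overlap, with a difference of -0.256 ± 0.0873 (SD, n = 3; exact sign-flip permutation test, p = 0.25). GC content was 41.1%, 41% and 38.5% under weaker sites and 41.8%, 41.2% and 40.4% under stronger sites, ranges that do overlap. Its difference was -0.948 ± 0.828 points (SD, n = 3; exact sign-flip permutation test, p = 0.25), and in the shorter windows, 50 bp either side, it was -4.50 ± 0.657 points. With replicate 1 left out, the GC difference was -0.100 points in own summits and turned to 0.107 points higher at the weaker sites over the series-wide summits.

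Location and composition moved together, so both classes were also read within each location. At promoters the CpG ratio was 1.37 for weaker and 1.5 for stronger sites, and GC content was 38.9% and 39.8%. Outside promoters the CpG ratio was 1.04 and 1.16, and GC content was 41.3% and 45.2%. Among own summits in promoters the CpG difference was -0.152 ± 0.0843, smaller than over all locations (SD, n = 3; exact sign-flip permutation test, p = 0.25). Outside promoters the GC difference was -4.16 ± 0.684 points, below 0 in 3 of 3 replicates (exact sign-flip permutation test, p = 0.25).

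The drops in promoter share across the limits of the rule were of the size of those between neighbouring bins of rank. By second-best rank, the share was 90.8% up to 500, 77.3% up to 1000 and 69.6% up to 2000, each bin starting above the one before. Within the weaker sites it was 57.0% of the 323 sites up to rank 3000, 45.6% of the next 226 up to 4000 and 36.2% of the last 210 up to 5000. Beyond them it was 26.9% up to 10000 and 19.7% up to 30000. The CpG ratio of the weaker sites fell over the same bins through 1.28, 1.17 and 1.11, towards 1.03 beyond rank 5000, and the share in coding exons went through 2.17%, 3.54% and 6.19%. The ranks chose the sites, so this order is a description.

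**Figure D4:**
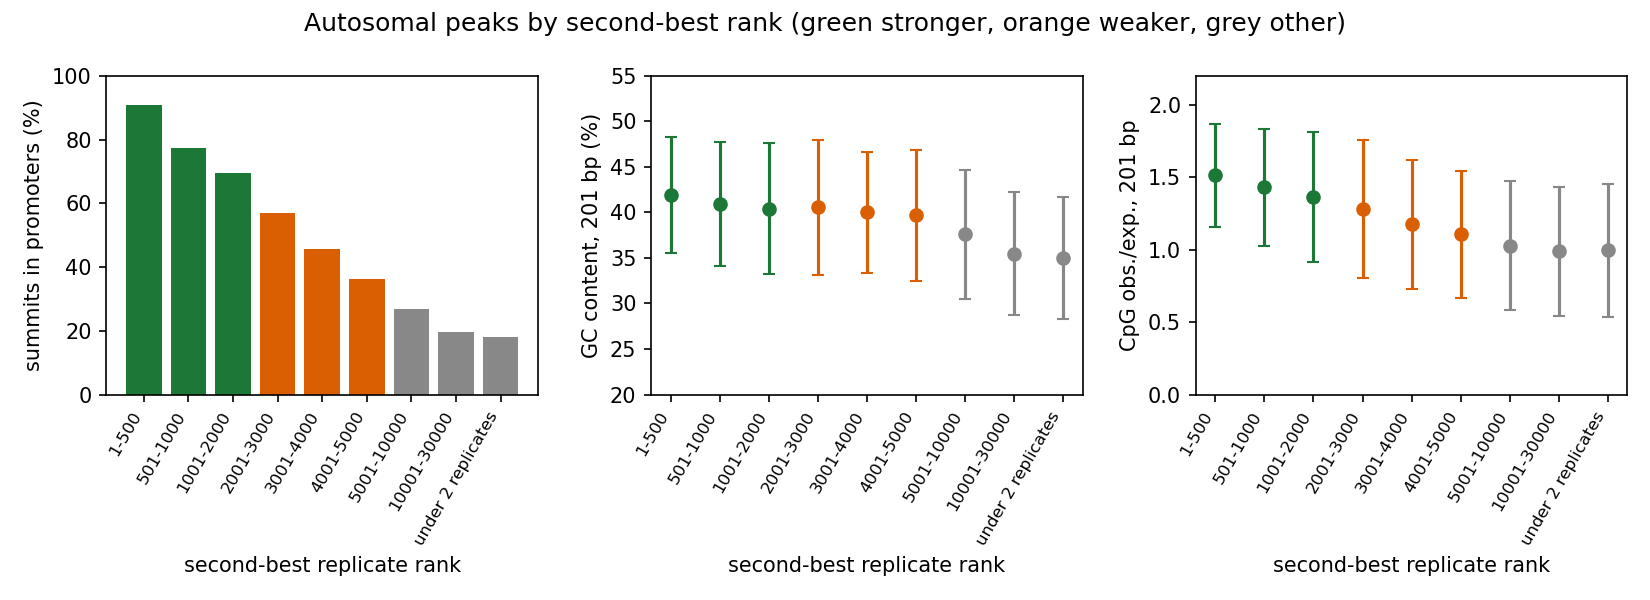
Promoter share (%), GC content (%) and CpG observed over expected ratio of autosomal peaks by second-best replicate rank. Points are means over peaks and bars on them 1 SD over peaks; the promoter share goes from 90.8% through 57.0%, 45.6% and 36.2% in the weaker bins (orange), and the CpG ratio from 1.51 through 1.28, 1.17 and 1.11.

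Short motifs were counted on both strands of the same windows, beside windows from 250 to 50 bp upstream of all 17242 autosomal protein-coding gene starts. An E2F-like motif, TTNNCGC with C or G at each N, as bound by E2F family factors, was in 13.2% of weaker, 22.5% of stronger and 6.49% of other windows, and in 7.07% of gene windows. The letters GAGCGC were in 13.3% of weaker, 26.3% of stronger and 3.25% of other windows, and in 3.91% of gene windows. These motifs both hold CG and can overlap each other, and 185 weaker sites held one or the other. In the replicates' own summits the weaker minus stronger difference was -9.41 ± 2.06 points for the E2F-like motif and -14 ± 1.61 points for GAGCGC, below 0 in 3 of 3 replicates (SD, n = 3; exact sign-flip permutation test, p = 0.25 for each).

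Other motifs did not follow that order. GAGAGA was in 32.4% of weaker, 32.1% of stronger and 12.4% of other windows, and in 15.3% of gene windows. In own summits its weaker minus stronger difference was -0.00706 ± 2.06 points (SD, n = 3; exact sign-flip permutation test, p = 1), with 1 replicate lower and 2 higher. Outside promoters GAGAGA was in 37.6% of weaker and 49.8% of stronger windows. A GATA-like motif, NGATAN with A or T first and A or G last, was in 30.2% of weaker and 23.2% of stronger windows. It was in 36.0% of other and 40.8% of gene windows, so the weaker sites lay between stronger and other ones in the reverse direction. A CHR-like motif, TTNGAA with C or T at N, was in 50.3% of weaker, 54.6% of stronger, 56.3% of other and 56.9% of gene windows. For the E-box CACGTG these were 5.40%, 4.70%, 3.50% and 4.05%. A match of letters is a description and not a binding site.

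Some weaker sites lay at tRNA genes. RNA polymerase III transcribes these short genes from promoter elements inside them, the A box and the B box. A summit within the promoter distance of a tRNA gene start was found for 28 weaker sites (3.69%), where 0.584% of all listed autosomal peaks had one, for 15 stronger sites (1.04%) and for 99 other listed peaks. In own summits the share was 5.11%, 4.06% and 3.49% under weaker sites in replicates 1, 2 and 3 and 0.915%, 1.06% and 0.789% under stronger sites. No replicate of one class reached the other, with a difference of 3.30 ± 0.787 points (SD, n = 3; exact sign-flip permutation test, p = 0.25). The 28 sites touched 30 of 336 autosomal tRNA genes, 22 of the sites lay outside protein-coding promoters, and 26 had the summit within 100 bp of the tRNA start. So did 12 of the 15 stronger and 55 of the 99 other tRNA sites.

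The examples below were chosen after their values were seen, for a summit within the tRNA gene and a B box in the window. Each is 101 bases on ce11, 5′ to 3′ along the tRNA, and capitals mark the B box letters GTTCGANNC. C43G2.t1, a tRNA-Leu gene on the plus strand, is shown from chrIV:6556811-6556911, and F10C1.t1, a tRNA-Gly gene, from the minus strand of chrII:5782213-5782313.
C43G2.t1: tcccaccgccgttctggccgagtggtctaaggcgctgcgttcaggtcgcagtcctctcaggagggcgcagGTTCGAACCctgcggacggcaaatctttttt
F10C1.t1: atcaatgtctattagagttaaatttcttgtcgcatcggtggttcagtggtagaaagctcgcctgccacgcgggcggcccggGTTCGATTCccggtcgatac
The C43G2.t1 site had ranks of 552, 2607 and 2084 in replicates 1, 2 and 3, and its summit lay inside the tRNA gene, 43 bp past its start. The F10C1.t1 site had ranks of 2668, 1823 and 12425, with the summit 19 bp past the start. The B box letters, on either strand, were in 17 of the 28 weaker, 9 of the 15 stronger and 46 of the 99 other tRNA windows. Over all windows they were in 3.69% of weaker, 2.14% of stronger and 1.61% of other windows. The tRNA genes at weaker sites coded for 17 kinds of tRNA, most often tRNA-Leu with 4 sites. Copies of a tRNA gene are near identical, so reads may have been placed at the wrong copy and the assignment to single tRNA genes is uncertain.

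Genes of small nucleolar RNAs, which guide RNA modification, were at 17 weaker (2.24%) and 47 stronger sites (3.25%), and at 0.596% of all listed autosomal peaks. In own summits the weaker minus stronger difference was -0.946 ± 0.0394 points, the opposite sign to the tRNA genes (SD, n = 3; exact sign-flip permutation test, p = 0.25). Small nuclear RNA genes were at 2 weaker (0.264%) and 14 stronger sites (0.967%), and at 0.156% of all listed autosomal peaks. For microRNA genes these were 9 (1.19%), 8 (0.552%) and 0.234%. For long intergenic RNA genes they were 6 (0.791%), 3 (0.207%) and 0.214%.

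The weaker sites were spread over all autosomes. They numbered 175, 130, 171 and 164 on chromosomes I to IV, with the rest on V, and ran from 12.4 per Mb on III to 5.69 per Mb on V. Over all autosomes there were 9.19 weaker and 17.5 stronger sites per Mb, and the stronger sites were also densest on III and sparsest on V. The central 50% of each chromosome held 60.6% of the weaker, 58.4% of the stronger and 54.7% of the other sites. The median distance from a weaker site to the nearest stronger one was 17388 bp, and 10 weaker sites lay within 500 bp of one.

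A weaker site lay at the promoter of 432 of 17242 autosomal protein-coding genes (2.51%) and a stronger one at 1534 (8.90%). The count with a weaker site was 408 without replicate 1, 239 (1.39%) without replicate 2 and 223 (1.29%) without replicate 3. Only 6 genes had both, mcm-4, cyb-1, kel-3, gldi-8, T02E1.2 and T26A8.4. The members of 23 gene lists were counted beside these shares, with no test, and the lists were drawn up with earlier results of these data known. Of their names, 7 had no match in the annotation: cdc-45, nuf-2, phi-6, phi-7, msh-4, opt-2 and rab-2.

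Genes of growth and division had weaker sites at shares above 2.51%, with many more stronger sites. Of 33 proteasome genes, 6 had a weaker and 17 a stronger site, of 56 cell cycle and replication genes 7 and 29, and of 75 ribosomal protein genes 7 and 59. RNA interference genes had 3 and 8 of 33, splicing genes 3 and 18 of 38, aminoacyl-tRNA synthetases 2 and 6 of 31, mitochondrial ribosomal proteins 4 and 20 of 66, and vesicle and lysosome genes 2 and 9 of 34. With a promoter from 250 bp upstream to 100 bp downstream, an alternative chosen after the data were seen, the ribosomal protein genes with a weaker site fell from 7 to 3 and the proteasome genes from 6 to 2, while all genes went from 432 to 285. With that promoter the ribosomal protein genes with a stronger site went from 59 to 15. Without replicate 2 there were 1 proteasome, 4 ribosomal protein and 4 cell cycle genes with a weaker site, where 1.39% of all genes had one. Without replicate 3 there were 0, 5 and 6, where 1.29% of all genes had one.

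Among the ribosomal protein genes, rps-11 (ranks 2101, 3399 and 927), rps-25 (no listed peak, 2159 and 1588) and rps-2 (no listed peak, 2091 and 2315) had the best second-best ranks, and each encodes a protein of the small subunit. Their summits lay 343, 353 and 245 bp upstream, farther than the median weaker promoter site. The proteasome sites included rpn-8, whose site is shared with mrps-6, rpn-12 (ranks 6079, 2680 and 432) and rpn-1, whose site lies nearer to ribo-1. In the cell cycle list, mcm-5 of the replicative helicase (no listed peak, 2134 and 940), the spindle checkpoint gene bub-3 (no listed peak, 2399 and 1744) and the centrosome gene spd-2 (2644, 1076 and 2495) came first.

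The other lists had few weaker sites. For splicing they were at snr-5, prp-31 and uaf-2, for RNA interference at rrf-2, rde-12 and ekl-1, for mitochondrial ribosomal proteins at mrps-6, mrps-15 and mrpl-19 among 4, for the synthetases at hars-1 and aars-1, and for vesicles and lysosomes at vps-35 and vha-2. Meiosis had him-5 of 39 genes, which shares its site with D1086.5, and the neuron list had egl-21 of 43. No weaker site was at any of 17 DREAM and synMuv B, 37 germline and P granule or 68 histone genes, where stronger sites were at 7, 3 and 4. Those stronger shares were 41.2%, 8.11% and 5.88%, against 8.90% of all genes. As 2.51% of all genes had a weaker site, a count of 0 in lists this small says little. Muscle (27 genes), homeobox (45), C-type lectin (237), intestine (26), cytochrome P450 (67) and UDP glucuronosyltransferase (63) genes also had 0. Stronger sites were at 2, 1, 5, 0, 0 and 0 of them. Leaving out single replicates changed such small counts: RNA interference went from 3 to 0 without replicate 2 or 3, vesicle and lysosome genes from 2 to 0 without replicate 3, mitochondrial ribosomal proteins from 4 to 1 without replicate 2, and germline and P granule genes from 0 to 1 without replicate 1 or 3. Splicing genes went from 3 to 1 without replicate 3, the synthetases from 2 to 1 without replicate 1 or 3, and the neuron list from 1 to 2 without replicate 1 and to 0 without replicate 3. C-type lectin genes went from 0 to 1, 2 and 1 without replicates 1, 2 and 3, and muscle genes from 0 to 1 without replicate 2 or 3.

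Large families had shares near or below 2.51%. F-box A genes had 4 of 156 with a weaker site and none with a stronger one, at fbxa-76 and fbxa-77 (1 shared site), fbxa-128 and fbxa-65. These 4 were 3 without replicate 1, 1 without replicate 2 and none without replicate 3. Chemoreceptors had 3 of 1186, srh-56, srh-269 and srsx-30 (0 of them without replicate 2), and the summit at srh-269 lay inside the tRNA-Gln gene T03E6.t1. Cuticle collagens had 2 of 145, col-159 and col-160, at 1 shared site, and nuclear hormone receptors had 1 of 246, nhr-228.

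**Figure D5:**
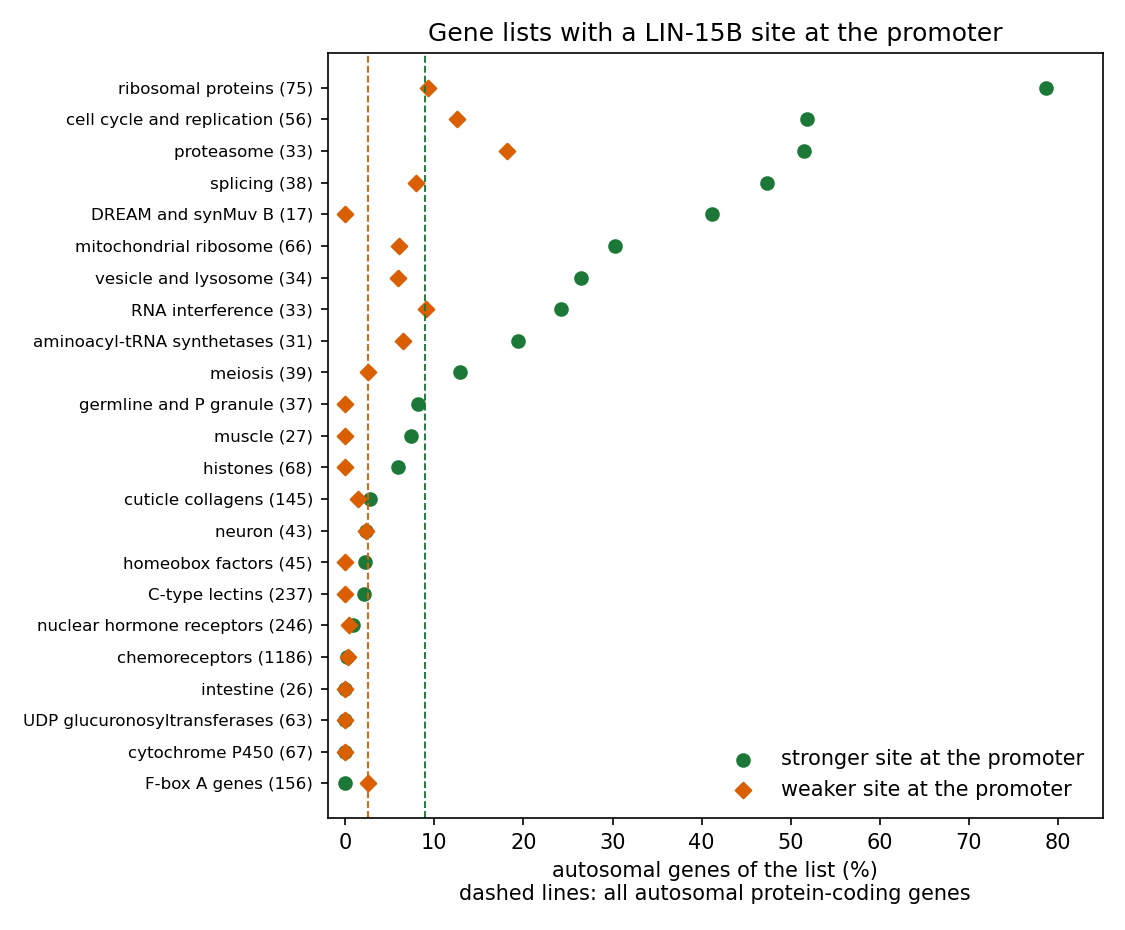
Share (%) of the autosomal genes of each list with a weaker (orange diamonds) or stronger (green circles) site at the promoter, list size in brackets. Dashed lines are the shares over all 17242 autosomal protein-coding genes, 2.51% and 8.90%. Weaker shares are 18.2% for proteasome and 12.5% for cell cycle genes with this promoter definition, an order that is turned with the smaller promoter (6.06% and 10.7%), with the nearest start only (9.09% and 12.5%) and without replicate 2 (3.03% and 7.14%) or 3 (0% and 10.7%).

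Promoter sites with a match in all 3 replicates numbered 182, and the 10 of them with the smallest mean rank are named here. Some sites outside promoters had mean ranks as small, among them the cmd-1 site (574, 2307 and 2015). The first promoter site lay between arx-6, a subunit of the Arp2/3 actin complex, and tost-1, which encodes a partner of the RNA-processing complex PETISCO, with its summit at position 4878502 of chromosome III and ranks of 2042, 2087 and 619 in replicates 1, 2 and 3. The next promoter site was at the protease gene try-3, the same site as C43G2.t1 above, so its coding gene and its tRNA gene cannot be told apart as the place of binding. Then came scyl-1 (1157, 2361 and 2312), cids-2 (1110, 2033 and 2695), Y65A5A.2 (2496, 891 and 2475) and ssup-72 (3584, 420 and 2142), a phosphatase of the RNA polymerase II tail. The last were spd-2 with F32H2.10, the decapping gene dcap-1 (2041, 1693 and 2506), rbm-3.1 (3592, 2117 and 597) and the Dishevelled gene dsh-2 (2548, 1702 and 2105). Ranks at dcap-1 and dsh-2 were alike in all replicates, while ssup-72 and rbm-3.1 each had 1 replicate well ahead of the others.

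Sites on either side of the limits differed little in second-best rank. Just inside the inner limit were pole-1, a DNA polymerase subunit, at 2007, mys-4, a histone acetyltransferase gene, at 2014 and cmd-1 at 2015. Just outside it, among the stronger sites, were K01H12.4 at 1995, the nuclear pore gene npp-12 at 1996 and ubl-5 at 1997. Just inside the outer limit were the neuropeptide gene flp-23 at 4985, rps-7 at 4992 and an intronic site of lim-7 at 4993, and beyond it M28.10 at 5012, gei-4 at 5014 and apd-3 at 5015. The summit at flp-23 lay inside the tRNA-Pro gene F22B7.t5.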

How the data were processed

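The sources used are peak lists of 3 replicates and of the series, on ce11 unless stated. The signal value of each peak is the authors' own, deposited on a scale that differs between lists, and served only for ranks within 1 list. The q value in the deposited lists was taken as a score, because it holds values below 0, and entered no comparison. The deposited summit offset (another column, in bp from the peak start) gave each peak's position. Which aligner and which peak caller were run is not given in the sources used here. Per the labels, 1 control experiment is listed for all replicates, and its samples were not analysed here.

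A site's rank in a replicate was that of the best peak overlapping it by 1 bp or more. Locations used Ensembl release 115, bases the RefSeq ce11 genome, and CpG ratios are observed over expected counts 100 bp either side of a summit. Weaker and stronger sites were compared through each replicate's own summits, giving 1 difference per replicate, with an exact sign-flip permutation test, two-sided. P-values refer to 3 samples, which share a strain and were read at largely overlapping sites. With 3 samples the p is 0.25 whenever the differences share a sign, whatever their spread. The statistics were tested on simulated data. Python 3.11.15, numpy 2.4.6, pandas 2.3.3 and matplotlib 3.10.9 were used.

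The sites, gene lists, motifs and tests were chosen with earlier results of these data known. Named genes are those at the 10 promoter sites matched in all 3 replicates with the smallest mean rank, at the 3 sites on each side of each limit, at the 5 sites farthest from a start, and up to 3 genes per list by second-best rank. The tRNA examples, the B box, the genes with both kinds of site and members named beyond the first 3 of a list were chosen after their values were seen. Alternatives were other rank limits, summits within 100 bp, 1 site per pair of replicate peaks, no site within 500 bp of a stronger one, tied ranks, each replicate left out, other promoters and gene sets, shorter windows, promoter sites only and the ce10 lists.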

Additional observations from a re-analysis of the deposited data

How the results depend on the processing

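The count of weaker sites rests on the rank limits and the replicates: it was 1357 with an inner limit of 1000, and 354 to 613 with 1 replicate left out (354 without replicate 3, 366 without replicate 2 and 613 without replicate 1). It was 549 with an outer limit of 4000, 577 with summits within 100 bp, 738 with 1 site per pair of replicate peaks and 755 on ce10. The own-summit mean differences kept their direction under every alternative run, from -33.2 to -24.9 points for the promoter share, -4.50 to -0.100 points for GC content and -0.262 to -0.152 for the CpG ratio, and the excess in the replicate left aside ran from 28.4 to 55.2 points. For GC content the spread passed the mean in 3 alternatives. These were -0.100 ± 0.742 points without replicate 1 (SD, n = 2) and -0.340 ± 0.733 points with summits within 100 bp (SD, n = 3). The last was -0.714 ± 0.750 points with an outer limit of 4000 (SD, n = 3). Directions were read on own-summit means, so the series-wide GC difference of 0.107 points without replicate 1 is not among the values below. Of 169 values recomputed for 29 results, 131 kept their direction or stayed within 1.5 times, 0 reversed and 38 moved, of which 3 were the counts of weaker sites above, 3 the count of all genes with a weaker site (285 with the smaller promoter, 239 without replicate 2 and 223 without replicate 3, against 432), and the others counts of single gene lists under alternatives chosen after the data were seen. The cause of these movements was not tested. The depth of the replicates is unknown, so a site ranked low or unlisted in 1 replicate may have been missed there.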
